A study of Mus musculus with 7 samples.

Results

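The 8 genes described here encode proteins that make, store or release glucose in the liver. They are the gluconeogenic enzymes Pcx, Pck1, Fbp1 and G6pc, the glucose transporter Slc2a2, the regulatory protein Gckr, the glycogen phosphorylase Pygl and the transcription factor Foxo1. They were chosen by symbol, and all 8 were found among the 22173 genes of the deposited expression table. The table covers 7 mouse spleen libraries. In the sHA-X group (4 libraries) the spleen had received 4 injections of the biomaterial named sHA-X, meant to remodel it as a site for liver cells. In the PBS group (3 libraries) the spleen had been given phosphate-buffered saline. Hepatocytes, the main cells of the liver, were then injected into the spleens of both groups, and total RNA was taken from the spleens 30 days later. Strain, sex, age, the donor of the hepatocytes and whether each library came from its own animal were not among the labels. P-values here therefore reflect how far libraries of a group lie apart, which may be technical. The design asks, among other hepatic functions, whether genes of glucose metabolism differ between the remodelled and the PBS spleens.

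Gluconeogenesis makes new glucose from lactate, amino acids and glycerol, and in mammals it runs mainly in the liver and in the kidney. Pyruvate carboxylase turns pyruvate into oxaloacetate in mitochondria, phosphoenolpyruvate carboxykinase turns oxaloacetate into phosphoenolpyruvate, fructose-1,6-bisphosphatase removes a phosphate near the end of the route, and glucose-6-phosphatase releases free glucose, which leaves the hepatocyte through the transporter GLUT2. Glycogen phosphorylase supplies glucose phosphate from stored glycogen to the same last step. Glucagon, acting through cyclic AMP, and the forkhead factor FOXO1, which insulin holds out of the nucleus, raise transcription of the genes for the carboxykinase and for glucose-6-phosphatase.

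The stretches just before the transcription starts of G6pc, Pck1 and Gckr are shown because these are the members with strongly uneven levels between libraries whose upstream sequence held a match to the short HNF1 motif GTTAAT. Each run is the 250 bases before the RefSeq start, read 5′ to 3′ on the gene's strand in build GRCm38.p6, at chr11:101367466-101367715 for G6pc, chr2:173152823-173153072 for Pck1 and chr5:31297313-31297562 for Gckr, all on the plus strand. The start used for Gckr lies inside the span annotated for the gene. Capitals mark matches to the motifs searched.
G6pc: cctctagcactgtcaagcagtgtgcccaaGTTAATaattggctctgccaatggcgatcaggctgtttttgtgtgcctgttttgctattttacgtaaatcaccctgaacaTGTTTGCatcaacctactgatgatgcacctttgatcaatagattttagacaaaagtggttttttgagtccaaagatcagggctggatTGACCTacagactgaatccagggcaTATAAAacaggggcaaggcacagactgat
Pck1: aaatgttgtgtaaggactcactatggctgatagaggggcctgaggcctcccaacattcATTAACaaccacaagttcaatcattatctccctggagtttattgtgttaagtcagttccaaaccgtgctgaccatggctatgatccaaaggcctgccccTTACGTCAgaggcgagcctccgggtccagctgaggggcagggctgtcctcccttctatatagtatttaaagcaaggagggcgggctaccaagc
Gckr: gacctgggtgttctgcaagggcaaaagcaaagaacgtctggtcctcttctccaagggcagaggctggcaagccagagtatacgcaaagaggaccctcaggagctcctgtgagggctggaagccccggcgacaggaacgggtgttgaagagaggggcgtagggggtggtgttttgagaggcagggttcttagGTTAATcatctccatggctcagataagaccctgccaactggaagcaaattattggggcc

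The cyclic AMP response element of Pck1, TTACGTCA, stood 93 to 86 bases before the Pck1 start and was found in 0.477% of 27025 promoters of the same length, searched on both strands. The HNF1 core motif GTTAAT, named for a hepatocyte transcription factor, matched 3 of the 8 members (G6pc at 221 to 216 bases, Pck1 at 192 to 187 bases on the opposite strand, and Gckr at 59 to 54 bases) and 6.52% of all promoters. The forkhead motif TGTTTNC matched G6pc alone among the members and 17.9% of all promoters. The nuclear receptor core motif AGGTCA matched G6pc, Slc2a2 and Pygl and 13.8% of all promoters, and the TATA box TATAAA matched G6pc and 13% of all promoters. The core ACGTCA, which lies within the Pck1 element, matched Pck1 and 6.56% of all promoters. The other 5 of the 11 motifs searched, TGACGTCA (the palindromic cyclic AMP response element), the full palindromic HNF1 site, GTAAACA (forkhead), CAAAGTCCA (HNF4) and TTGCNNAAT (C/EBP), had no match in these windows of the members and matched between 0.0074% and 3.09% of all promoters. A match of letters describes the sequence and shows no binding.

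Levels are the authors' FPKM values, that is, fragments scaled to transcript length and library size. They can be compared between genes only as far as the length used for each gene holds. Lists of values below run in replicate order, sHA-X replicates 1 to 4 and PBS replicates 1 to 3. Read numbers behind an FPKM value are whole reads recovered from the table, with between 29543963 and 37142218 per library, and a gene's reads may all be off by the same multiple. Every library carried spleen genes, with the antigen presentation gene Cd74 between 2392.9 and 3325.3 FPKM. Summed hepatocyte markers (15 genes, led by Alb, which encodes albumin) were 9.63, 31.7, 1051.1 and 1059.9 FPKM in sHA-X libraries, against 3.32, 10.8 and 4.45 FPKM in PBS libraries. PBS replicate 2 had 1111.2 FPKM of summed pancreatic acinar markers, against at most 35.8 FPKM in any other library, and sHA-X replicate 2 had 202.7 FPKM of skeletal muscle markers, against at most 10.3 FPKM in any other. In bulk spleen RNA, a change in the number of cells of one type and a change in the RNA per cell cannot be told apart.

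Of the 8 members, 6 had a mean of at least 1 FPKM over the 7 libraries and were tested. Slc2a2 and Gckr were under that filter. By limma on log2(FPKM + 1), with p-values adjusted over all 11920 genes tested, Pygl rose in sHA-X spleens, Foxo1 fell and Pcx, Pck1, Fbp1 and G6pc were not called. The background was 9.3% of tested genes called higher and 5.03% called lower (1108 and 600 genes, or 1001 and 843 with median-of-ratios scaling), and 1 riser and 1 faller among 6 tested members are too few to set against these shares. Groups without overlap were found for 28.8% of tested genes in either direction, and among the tested members for Pygl and Foxo1. The groups of Slc2a2, which was not tested, did not overlap either. That rests on 1 and 2 reads in sHA-X replicates 1 and 2, against 0 in each PBS library. Pck1, Fbp1 and G6pc passed the filter only through their sHA-X libraries.

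**Figure D1:**
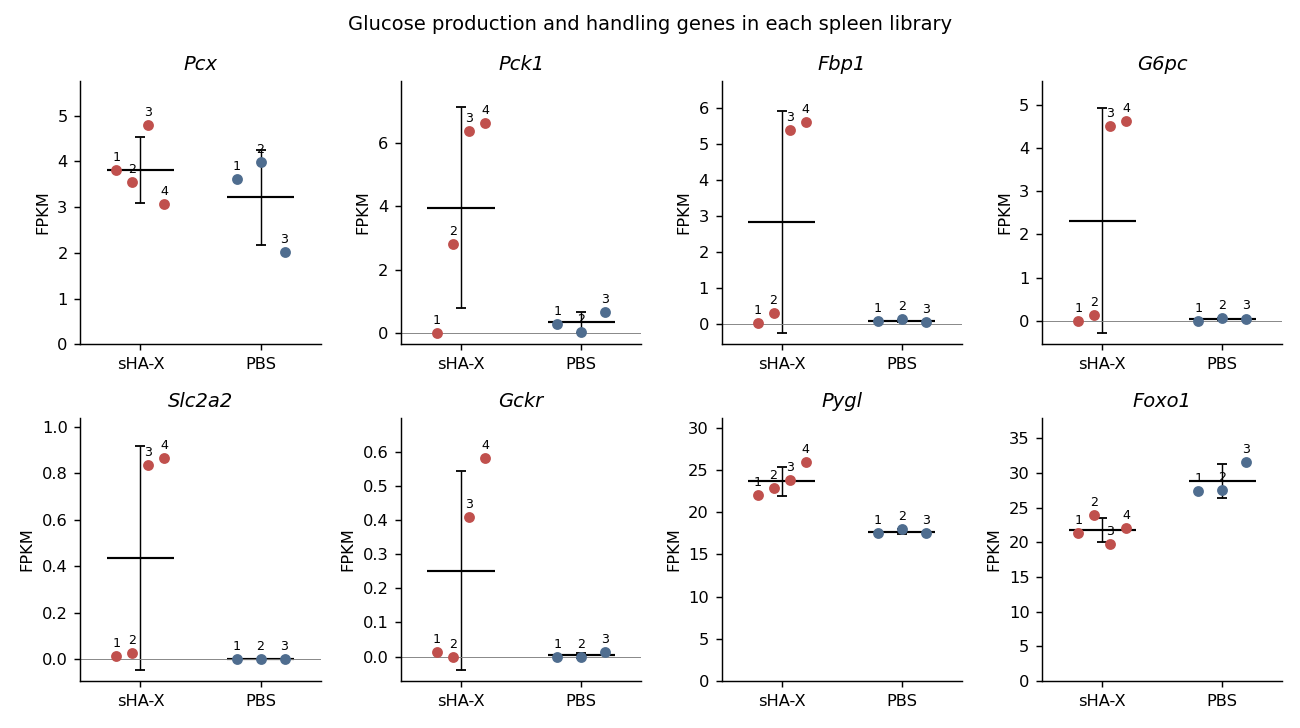
FPKM (vertical axes, linear) of the 8 members in each library, sHA-X at left and PBS at right. Points are libraries with their replicate number, the horizontal line is the group mean and the bar is ± SD. Fbp1, G6pc, Slc2a2 and Gckr are high in sHA-X replicates 3 and 4 and near 0 elsewhere, while Pygl and Foxo1 separate the groups without overlap.

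G6pc encodes the catalytic subunit of glucose-6-phosphatase, the enzyme that lets a cell export glucose (NCBI gene 14377, chromosome 11, 101367716 to 101377903). Its levels were 0, 0.134, 4.51 and 4.63 FPKM in sHA-X libraries, against 0, 0.0554 and 0.0529 FPKM in PBS libraries. The reads behind these values were 0, 9, 341 and 390 in sHA-X libraries, against 0, 4 and 4 in PBS libraries. Only sHA-X replicates 3 and 4 stood clear of the PBS range by more than a few reads, and sHA-X replicate 1 had none. The means were 2.32 ± 2.60 FPKM in sHA-X (SD, n = 4) and 0.0361 ± 0.0313 FPKM in PBS (SD, n = 3), and the difference did not pass limma (log2 change 1.23, SE 0.77, adjusted p = 0.35). The ubiquitous paralog G6pc3 was 14.0, 15.6, 13.1 and 13.5 FPKM in sHA-X libraries, against 11.4, 11.2 and 12.9 FPKM in PBS libraries. Its groups did not overlap, and its adjusted p by limma was 0.081. Slc37a4, which carries glucose-6-phosphate to the enzyme inside the endoplasmic reticulum, was between 5.63 and 5.97 FPKM in sHA-X and between 5.12 and 5.96 FPKM in PBS (adjusted p = 0.74 by limma). The transporter and the paralog were thus present in every library, including those in which G6pc was at 0.

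Fbp1, which encodes the fructose-1,6-bisphosphatase of liver and kidney (NCBI gene 14121, chromosome 13, 62864753 to 62888298), was uneven in the same libraries as G6pc. It measured 0.0365, 0.294, 5.40 and 5.62 FPKM in sHA-X libraries, against 0.0724, 0.127 and 0.0696 FPKM in PBS libraries. The group means were 2.84 ± 3.09 FPKM in sHA-X (SD, n = 4) and 0.0898 ± 0.0326 FPKM in PBS (SD, n = 3). In limma the log2 change was 1.33 with SE 0.80, and the adjusted p was 0.34. The groups overlapped, because sHA-X replicate 1 lay below all 3 PBS libraries, on 2 reads. The muscle paralog Fbp2 was listed at 0 in all 7 libraries.

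Slc2a2, the gene for GLUT2, the low-affinity glucose transporter of hepatocytes and pancreatic beta cells (NCBI gene 20526, chromosome 3, 28697903 to 28728361), was not detected in any PBS library. It was 0.0122, 0.0262, 0.837 and 0.866 FPKM in sHA-X libraries, on 1, 2, 72 and 83 reads. The limit set by 3 reads was on average 0.0359 FPKM in PBS libraries, so the sHA-X mean of 0.435 FPKM was at least 12.1-fold higher, a bound that covers counting error only. With no filter on low genes the adjusted p by limma was 0.32. Of 8 pancreatic islet markers, the hormone genes Ins1, Iapp and Sst and the islet paralog G6pc2 were listed at 0 in all 7 libraries. The rest were low but not at 0 throughout. Pcsk1 was between 0.121 and 0.173 FPKM in sHA-X and between 0.109 and 0.220 FPKM in PBS. Gcg was 0.431 FPKM in sHA-X replicate 1 and 0.0274 FPKM in sHA-X replicate 3. Ins2 was 0.0537 FPKM in PBS replicate 2 only, and Chga was at most 0.0656 FPKM. Slc2a1 and Slc2a3, the glucose transporters of most blood cells, were between 15.0 and 16.6 FPKM and between 10.8 and 11.0 FPKM in sHA-X, against 15.3 to 17.9 FPKM and 10.5 to 11.8 FPKM in PBS, and neither was called by limma (adjusted p = 0.47 and 0.83).

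Gckr encodes a regulatory protein of glucose use in hepatocytes (NCBI gene 231103, chromosome 5, 31297266 to 31327302). It had 1, 0, 32 and 51 reads in sHA-X libraries (0.0134, 0, 0.408 and 0.583 FPKM), against 0, 0 and 1 read in PBS libraries (at most 0.0127 FPKM). Per unit of depth the sHA-X libraries together had 61.9 times the reads of the PBS libraries, with an exact 95% counting interval of 10.8 to 2475 that ignores the spread between libraries. With no filter the adjusted p by limma was 0.36.

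Pck1, the gene for cytosolic phosphoenolpyruvate carboxykinase (NCBI gene 18534, chromosome 2, 173153073 to 173159274), departed from this profile in sHA-X replicate 2. It was 0.0119, 2.83, 6.38 and 6.62 FPKM in sHA-X libraries, against 0.306, 0.0356 and 0.680 FPKM in PBS libraries. The lowest value of all 7 was sHA-X replicate 1, on 1 read, and the other 3 sHA-X libraries lay above every PBS library. The means were 3.96 ± 3.15 FPKM in sHA-X (SD, n = 4) and 0.341 ± 0.324 FPKM in PBS (SD, n = 3), and limma gave a log2 change of 1.55 with SE 0.78 and an adjusted p of 0.25. This outcome rests on sHA-X replicate 1, without which limma gave a log2 change of 2.19, SE 0.32 and an adjusted p of 0.017. Since that is the library with the lowest value and Pck1 passed the filter through its sHA-X libraries, the fit without it is given as a description and not as a call. The mitochondrial form Pck2 was between 20.8 and 28.2 FPKM in sHA-X and between 16.9 and 30.3 FPKM in PBS (adjusted p = 0.91 by limma).

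Pck1 is also expressed in fat cells, where the enzyme makes glycerol phosphate for triglycerides, and adipocyte markers varied between the libraries. The adipokine gene Adipoq was 0.381, 4.90, 0.0243 and 1.07 FPKM in sHA-X libraries, against 1.08, 0.0254 and 1.87 FPKM in PBS libraries. The summed adipocyte list (10 genes, led by Fabp4, which other cells also express) was 27.0, 107.3, 24.6 and 39.3 FPKM in sHA-X, against 30.6, 14.5 and 30.0 FPKM in PBS. Both measures were highest in sHA-X replicate 2. Adipoq was lowest in sHA-X replicate 3, where Pck1 was 6.38 FPKM, and nearly as low in PBS replicate 2, where Pck1 was 0.0356 FPKM. The part of fat cells in the Pck1 values was not tested.

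**Figure D2:**
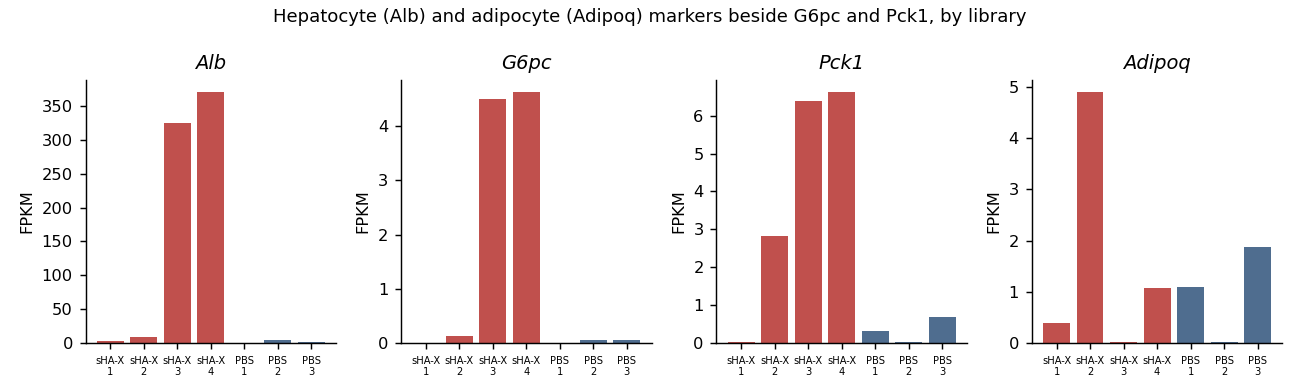
FPKM (vertical axes, linear) of the hepatocyte marker Alb, of G6pc and Pck1, and of the adipocyte marker Adipoq in each library, with sHA-X libraries in red at left and PBS libraries in blue at right. Alb and G6pc are high in sHA-X replicates 3 and 4 (325.3 and 370.4 FPKM for Alb), whereas Pck1 also reaches 2.83 FPKM in sHA-X replicate 2, where Adipoq peaks at 4.90 FPKM.

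Set against albumin, the members differed from each other. For each 1000 FPKM of Alb, G6pc had 15.8 FPKM in sHA-X replicate 2 (exact 95% interval from its reads 7.23 to 30.0), 13.9 FPKM in sHA-X replicate 3 (12.4 to 15.4) and 12.5 FPKM in sHA-X replicate 4 (11.3 to 13.8). In PBS replicate 2, on 4 reads, the figure was 13.5 FPKM (3.69 to 34.6), and in PBS replicate 3, also on 4 reads, it was 46.2 FPKM (12.6 to 118.3). These 5 intervals overlap, although Alb itself ran between 1.15 and 370.4 FPKM in these libraries. In sHA-X replicate 1 and PBS replicate 1 G6pc had 0 reads, with intervals up to 23.5 and 187.0 FPKM. Fbp1 per 1000 FPKM of Alb was 34.7 FPKM (19.4 to 57.2) in sHA-X replicate 2, above the 16.6 FPKM (14.8 to 18.5) of replicate 3 and the 15.2 FPKM (13.6 to 16.8) of replicate 4. On few reads it was 266.6 FPKM (72.6 to 682.5) in PBS replicate 1, 31.1 FPKM (12.5 to 64.1) in PBS replicate 2 and 60.7 FPKM (16.6 to 155.5) in PBS replicate 3. The value of sHA-X replicate 2 thus lay among those of the PBS libraries. The intervals of PBS replicates 2 and 3 overlapped those of sHA-X replicates 2, 3 and 4. In sHA-X replicate 1, on 2 reads, the Fbp1 figure was 16.8 FPKM (2.03 to 60.6). Pck1 per 1000 FPKM of Alb was 332.8 FPKM (290.3 to 379.7) in sHA-X replicate 2, against 19.6 FPKM in sHA-X replicate 3 and 17.9 FPKM in sHA-X replicate 4. It was also high in PBS replicate 1 (1129 FPKM, 737.3 to 1654) and PBS replicate 3 (593.6 FPKM, 453.0 to 764.0). It was not high in PBS replicate 2, at 8.68 FPKM (1.79 to 25.4) on 3 reads. Nor was it in sHA-X replicate 1, at 5.47 FPKM (0.138 to 30.4) on 1 read. Slc2a2 had 3.09, 2.57 and 2.34 FPKM per 1000 FPKM of Alb in sHA-X replicates 2, 3 and 4, with intervals that overlapped. In sHA-X replicate 1, on 1 read, the Slc2a2 figure was 5.61 FPKM (0.142 to 31.2). These intervals take Alb as fixed.

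Markers of the other tissue known for gluconeogenesis, the kidney proximal tubule, were low in all libraries. The 8 kidney markers summed to between 0.261 and 0.369 FPKM in sHA-X and between 0.387 and 0.600 FPKM in PBS, and Kap, Slc22a6 and Miox were listed at 0 in all 7. Among tested genes, the profiles most like that of G6pc over the 7 libraries were those of Kng1 (a kininogen), Cyp1a2 (a cytochrome P450) and Rdh7, with overlaps of 98.6%, 98.5% and 98.4%. The overlap is the sum, over libraries, of the smaller of the 2 genes' shares of their own total, and over all tested genes its median with G6pc was 31.2%. Those most like Fbp1 were Pon1, Itih4 and Gjb1 (99.1%, 98.5% and 98.5%, against a median of 33.8%). Those most like Pck1 were Cdo1, Mup22 and Ces1d (91.9%, 89.3% and 88.8%, against a median of 49.2%). Mup22 is 1 of a set of near-identical genes and is uncertain as a single gene.

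Pcx, which encodes pyruvate carboxylase, the first enzyme of gluconeogenesis and a supplier of oxaloacetate in many tissues (NCBI gene 18563, chromosome 19, 4510472 to 4621752), did not differ between the groups beyond the spread of the libraries. It was 3.81, 3.55, 4.80 and 3.08 FPKM in sHA-X libraries, against 3.62, 3.98 and 2.03 FPKM in PBS libraries. The ranges overlapped, and PBS replicate 3 was the lowest of the 7. The log2 change was 0.21 (SE 0.19, adjusted p = 0.50 by limma), and without PBS replicate 3 it was -0.0086. PBS replicate 3 was also lowest among PBS libraries for the haemoglobin gene Hbb-bs, at 13216 FPKM against 27415 and 24424 FPKM in PBS replicates 1 and 2, and sHA-X libraries had 13829, 9139.8, 14627 and 10397 FPKM. The part of red cell precursors in the Pcx values was not tested. The profiles most like Pcx were those of Mocs1, Gstm5 and Tarsl2 (97.5%, 96.9% and 96.9%, against a median of 90.1%). The gene Lrfn4 overlaps Pcx on the opposite strand, at a mean of 0.485 FPKM in sHA-X and 0.559 FPKM in PBS. If strand was not kept, which is not known, its reads cannot be told apart from those of Pcx where the 2 genes overlap.

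Pygl, the liver form of glycogen phosphorylase, which neutrophils and macrophages also use (NCBI gene 110095, chromosome 12, 70190815 to 70227683), rose. It was 22.0, 22.8, 23.8 and 26.0 FPKM in sHA-X libraries, against 17.5, 18.0 and 17.5 FPKM in PBS libraries. All 4 sHA-X libraries lay above all 3 PBS libraries, and, unlike for G6pc, sHA-X replicates 1 and 2 were close to replicates 3 and 4. The means were 23.7 ± 1.71 FPKM in sHA-X (SD, n = 4) and 17.7 ± 0.31 FPKM in PBS (SD, n = 3), a ratio of 1.34. In limma the log2 change was 0.40 with SE 0.065 and the adjusted p 0.0063. Dropping any single library kept the call, the highest adjusted p being 0.036. Groups without overlap, with sHA-X above PBS, were found for 17.2% of tested genes. The brain and muscle forms were not called. Pygb was between 23.9 and 25.9 FPKM in sHA-X and between 22.3 and 27.1 FPKM in PBS (adjusted p = 0.88 by limma), and Pygm was 1.87, 6.89, 1.93 and 1.88 FPKM in sHA-X, against 2.35, 1.99 and 2.49 FPKM in PBS (adjusted p = 0.81). The high Pygm value lay in the library with skeletal muscle markers.

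Foxo1 encodes the forkhead factor that drives G6pc and Pck1 in liver and that B and T lymphocytes need for their development and homing (NCBI gene 56458, chromosome 3, 52268337 to 52350109). It fell. It was 21.3, 23.9, 19.7 and 22.0 FPKM in sHA-X libraries, against 27.4, 27.5 and 31.6 FPKM in PBS libraries. No sHA-X library reached the lowest PBS library, a pattern found for 11.5% of tested genes. The means were 21.8 ± 1.73 FPKM in sHA-X (SD, n = 4) and 28.9 ± 2.42 FPKM in PBS (SD, n = 3), and limma gave a log2 change of -0.39 with SE 0.080 and an adjusted p of 0.016. Dropping any single library kept the call, the highest adjusted p being 0.045. The antisense transcript Gm20402 overlaps the gene and was not used here. Foxo3 was 25.1, 21.1, 24.7 and 19.6 FPKM in sHA-X, against 32.2, 32.2 and 20.4 FPKM in PBS, and Foxo4 was 11.6, 11.3, 12.6 and 9.99 FPKM, against 15.3, 14.0 and 10.9 FPKM, and neither was called (adjusted p = 0.32 and 0.28 by limma). The profiles most like Foxo1 were those of Atp2a3, Gm15448 and Myo1g (99.2%, 99.0% and 98.8%, against a median of 91.8%). All 3 fell.

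Cell type markers moved with both calls. Summed B cell markers (12 genes, led by Cd79a) were 1481.5, 1483.6, 1419.4 and 1293.6 FPKM in sHA-X, against 1938.1, 1867.4 and 2226.6 FPKM in PBS, and 8 of the 12 fell. For each 1000 FPKM of these markers, Foxo1 had 14.4, 16.1, 13.9 and 17.0 FPKM in sHA-X, against 14.1, 14.7 and 14.2 FPKM in PBS. On this scale the groups overlapped. T cell markers (11 genes) summed to 236.5, 289.7, 246.8 and 309.1 FPKM in sHA-X, against 300.2, 303.9 and 406.6 FPKM in PBS, and 2 of the 11 fell. Per 1000 FPKM of T cell markers, Foxo1 was 90.1, 82.6, 80.0 and 71.2 FPKM in sHA-X, against 91.2, 90.6 and 77.8 FPKM in PBS, and the groups overlapped, with the lowest value in sHA-X replicate 4. The part of lymphocytes in the Foxo1 fall was not tested. Summed macrophage markers (13 genes, led by Vcam1) were 2670, 2443, 2616 and 2618 FPKM in sHA-X, against 1453, 1311 and 1672 FPKM in PBS, and 11 of the 13 rose. Monocyte and neutrophil markers (14 genes, led by S100a8) summed to 3570, 5488, 4003 and 4701 FPKM in sHA-X, against 3447, 3413 and 2084 FPKM in PBS, with 3 risen. Per 1000 FPKM of macrophage markers, Pygl was 8.25, 9.35, 9.09 and 9.93 FPKM in sHA-X, against 12.0, 13.8 and 10.5 FPKM in PBS, and per 1000 FPKM of monocyte and neutrophil markers it was 6.17, 4.16, 5.94 and 5.53 FPKM, against 5.07, 5.28 and 8.41 FPKM. On the macrophage scale every sHA-X library lay below every PBS library, and on the monocyte and neutrophil scale the groups overlapped. The part of these cells in the Pygl rise was not tested.

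**Figure D3:**
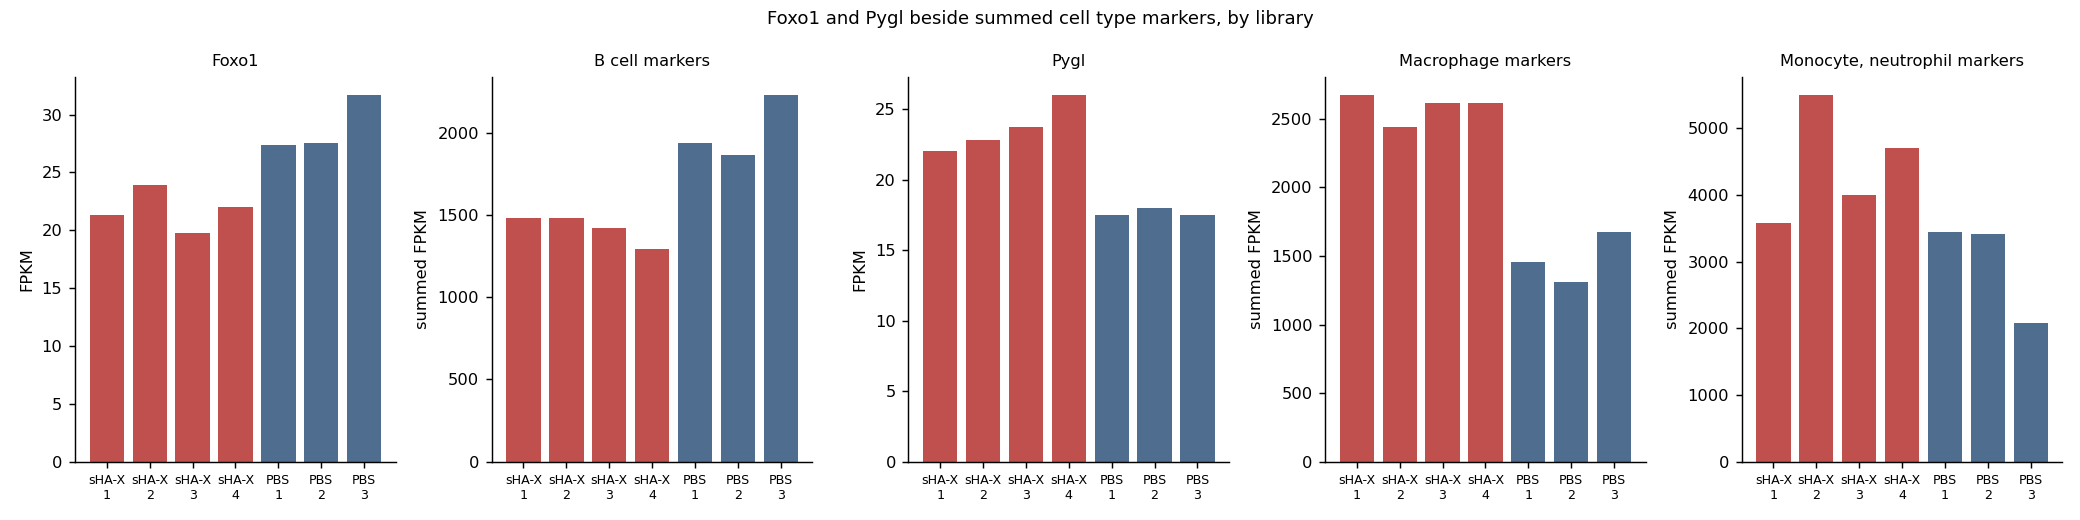
Foxo1 and Pygl (FPKM) beside the summed FPKM of B cell, macrophage, and monocyte and neutrophil markers in each library, on linear axes from 0, with sHA-X libraries in red at left and PBS libraries in blue at right. Foxo1 and the B cell sum are lower in every sHA-X library than in any PBS library, and Pygl and the macrophage and neutrophil sums are higher in every sHA-X library.

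Within the sHA-X group the 8 genes ranked by mean as Pygl, Foxo1, Pck1, Pcx, Fbp1, G6pc, Slc2a2 and Gckr, and within PBS as Foxo1, Pygl, Pcx, Pck1, Fbp1, G6pc, Gckr and Slc2a2. In sHA-X the ranges of Pygl and Foxo1 overlapped, as did those of Pck1, Pcx, Fbp1 and G6pc, so their order is within the spread between libraries. In PBS, Foxo1 stood above Pygl, Pygl above Pcx and Pcx above Pck1 in every library. The length behind the Foxo1 values was 5575 bases, against 8665 for its longest annotated transcript. The order of Foxo1 and Pygl therefore depends on the length used. Of its FPKM total over the 7 libraries, G6pc had 48.1% and 49.3% in sHA-X replicates 3 and 4, Fbp1 46.5% and 48.4%, Slc2a2 48.1% and 49.7%, Gckr 40.1% and 57.3% and Pck1 37.9% and 39.3%. The corresponding shares were 16.1% and 17.6% for Pygl, 11.4% and 12.7% for Foxo1 and 19.3% and 12.4% for Pcx.

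The wider glucose lists held 107 genes besides the members, of which 91 were tested. Of these 91, 17 (18.7%) rose and 4 (4.4%) fell by limma adjusted over all genes, against 9.3% and 5.03% of all tested genes. Their median log2 change was 0.11, against 0.026 over all tested genes. The lists were chosen with earlier results of these data known, so these shares describe the lists and test nothing. Without PBS replicate 1, 6 of 92 rose and 1 fell, against 488 and 228 of all 11944 genes tested in that fit. Without sHA-X replicate 1, 11 of 92 rose and 1 fell, against 752 and 342 of 11919. Leaving out both second libraries, 7 of 92 rose and 2 fell, against 492 and 330 of 11907. Without PBS replicate 2 or 3, 12 and 19 rose and 3 fell in each fit. Without sHA-X replicate 2, 3 or 4, 13, 15 and 12 rose. Leaving out sHA-X replicate 2, 3 or 4 left 2, 2 and 1 genes that fell.

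Of the 10 tested genes for steps shared by glycolysis and gluconeogenesis, Aldoa, Tpi1, Pgam1 and Eno1 rose, none fell and 6 were not called, with a median log2 change of 0.31. Tpi1, triose phosphate isomerase, was 109.6, 119.3, 108.7 and 123.3 FPKM in sHA-X, against 77.7, 86.5 and 82.8 FPKM in PBS (log2 change 0.48, SE 0.068, adjusted p = 0.0036 by limma). Aldolase A (Aldoa) was 145.5, 162.4, 135.9 and 138.0 FPKM in sHA-X, against 99.8, 102.3 and 120.0 FPKM in PBS (adjusted p = 0.015 by limma). The calls of Aldoa and of the enolase gene Eno1 were lost without PBS replicate 1, and that of Pgam1 in 5 of the 7 fits with 1 library left out, so that without PBS replicate 1 only Tpi1 of this list rose, and 1 gene rose without both second libraries. Of its uncalled genes, Gpi1, Pgk1 and Gapdh were the most abundant, and Gapdh was between 44.0 and 60.6 FPKM in sHA-X and between 39.0 and 43.5 FPKM in PBS (adjusted p = 0.091 by limma).

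Among genes of glucose output and its supply, Got1, Got2, Slc25a1 and Ldha rose of 19 tested, none fell and 15 were not called. Got1, the cytosolic aspartate aminotransferase of the malate-aspartate shuttle, was 22.6, 19.6, 19.3 and 22.3 FPKM in sHA-X, against 15.0, 11.3 and 15.6 FPKM in PBS (adjusted p = 0.014 by limma, and at most 0.042 with 1 library left out). Ldha, lactate dehydrogenase A, was 72.3, 72.1, 72.2 and 77.6 FPKM in sHA-X, against 56.7, 59.1 and 63.2 FPKM in PBS (adjusted p = 0.014 by limma). The calls of Slc25a1 and Ldha were lost without PBS replicate 1 and that of Got2 in 6 of the 7 fits, and 1 gene rose without PBS replicate 1 or without both second libraries. The malate dehydrogenases Mdh1 and Mdh2, the pyruvate carrier subunit Mpc2 and Slc25a11 were the most abundant uncalled genes, with adjusted p between 0.12 and 0.99 by limma.

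Of the glycolytic steps that gluconeogenesis bypasses, Hk3 and Pkm rose of 9 tested, and the liver forms stayed low or uncalled. Hk3, a hexokinase of myeloid cells, was 14.0, 13.2, 14.5 and 15.8 FPKM in sHA-X, against 8.92, 7.75 and 7.25 FPKM in PBS (log2 change 0.78, SE 0.084, adjusted p = 0.0012 by limma). Pkm was between 70.9 and 83.8 FPKM in sHA-X and between 55.2 and 65.4 FPKM in PBS (adjusted p = 0.017 by limma, lost without PBS replicate 1 or 2). Pklr, the pyruvate kinase of liver and red cells, was 20.9, 15.7, 21.9 and 14.1 FPKM in sHA-X, against 13.0, 17.2 and 5.94 FPKM in PBS. It was not called (adjusted p = 0.30 by limma), and like Pcx it was lowest in PBS replicate 3.

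Of 19 tested glycogen genes, Pygl, Gaa, Pgm2, Ppp1r3b and Ppp1r3d rose and Phkg2 fell. Gaa, the lysosomal acid glucosidase that breaks down glycogen in lysosomes, was 21.1, 21.0, 19.4 and 20.1 FPKM in sHA-X, against 15.6, 14.0 and 15.7 FPKM in PBS (log2 change 0.41, SE 0.062, adjusted p = 0.0045 by limma). Ppp1r3d, a subunit that directs protein phosphatase 1 to glycogen, was between 1.80 and 2.53 FPKM in sHA-X and between 0.954 and 1.39 FPKM in PBS (adjusted p = 0.021 by limma, lost without PBS replicate 1 or sHA-X replicate 1). The call of Ppp1r3b was lost in 5 of the 7 fits with 1 library left out, and those of Pgm2 and Phkg2 in all 7, and 2 genes rose without PBS replicate 1 or sHA-X replicate 1 and 3 without PBS replicate 2 or sHA-X replicate 4. The liver glycogen synthase Gys2 was 0, 0.0109, 0.164 and 0.312 FPKM in sHA-X, against 0 in each PBS library.

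None of the 8 tested genes of fructose, sorbitol and galactose handling was called, and their adjusted p lay between 0.27 and 0.97 by limma. Without PBS replicate 3, 1 gene of this list rose. Khk, which starts fructose breakdown, was 10.2, 9.22, 12.9 and 11.4 FPKM in sHA-X, against 9.72, 9.62 and 10.9 FPKM in PBS. Of 6 tested glucose transporters only Slc2a8 rose, an intracellular transporter. It was 5.14, 4.28, 4.59 and 4.63 FPKM in sHA-X, against 3.20, 3.07 and 3.04 FPKM in PBS (adjusted p = 0.0057 by limma).

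Of the transcription factors and hormone receptors of gluconeogenesis, 12 of 22 were tested, Cebpb rose and Foxo1 fell, and without PBS replicate 3, 3 genes fell. Cebpb, a factor of liver and of myeloid cells, was 40.3, 36.2, 41.9 and 33.3 FPKM in sHA-X, against 24.8, 23.2 and 21.4 FPKM in PBS (limma log2 change 0.69, SE 0.090, adjusted p = 0.0026). The hepatocyte factor Hnf4a was 0.0536, 0.0433, 1.31 and 1.54 FPKM in sHA-X, against 0.0465, 0.0402 and 0.0895 FPKM in PBS, and the glucagon receptor Gcgr was 0, 0.0594, 1.38 and 1.55 FPKM, against 0.0219, 0.0441 and 0.0316 FPKM. Both were under the filter and, like G6pc, clear of the PBS range in sHA-X replicates 3 and 4. Ppargc1a, a coactivator that glucagon raises in liver, was at most 0.0910 FPKM in sHA-X and 0.0866 FPKM in PBS. The insulin receptor Insr and the glucocorticoid receptor Nr3c1 were not called (adjusted p = 0.86 and 0.65 by limma).

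Of 16 tested FoxO targets of liver and lymphocytes, Klf2, Ccr7 and Ccng2 fell, Bnip3 rose and 12 were not called, with a median log2 change of -0.17. Klf2, a factor that keeps lymphocytes in circulation, was 97.1, 97.8, 96.6 and 77.7 FPKM in sHA-X, against 130.7, 130.3 and 157.0 FPKM in PBS (limma log2 change -0.59, SE 0.10, adjusted p = 0.0084). The calls of Ccr7 and Ccng2 were lost in 5 of the 7 fits with 1 library left out and that of Bnip3 in 4, and 1 gene fell in 4 of the 7 such fits, those lacking PBS replicates 1 and 3 and sHA-X replicates 1 and 4 in turn. The liver target Igfbp1 was under the filter. It was 0.103, 0.0444, 2.18 and 3.93 FPKM in sHA-X, against 0, 0 and 0.0197 FPKM in PBS. Txnip, Cdkn1b and S1pr1 were among the most abundant uncalled targets. Of the 12 B cell markers above, 8 fell in the same comparison. The part of B cells in the falls of Klf2, Ccr7 and Ccng2 was not tested.

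**Figure D4:**
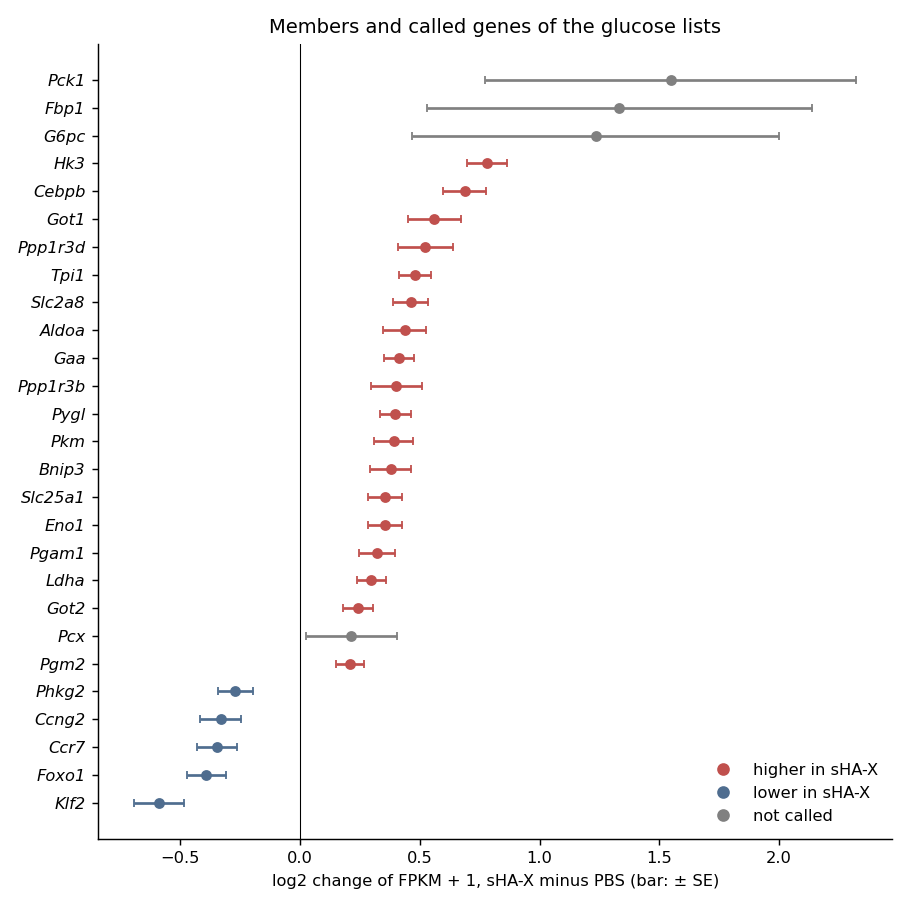
Log2 change of FPKM + 1, sHA-X minus PBS (horizontal axis), for the 6 tested members and every called gene of the glucose lists. Points are limma estimates and bars ± SE, in red for genes called higher, blue for genes called lower and grey for genes not called. Pck1, Fbp1 and G6pc have the largest estimates and the widest bars, while Pygl and Foxo1 lie 0.40 above and 0.39 below 0 with short bars.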

How the data were processed

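The deposited table holds 1 value per gene and library, which its header does not name. The values were read as FPKM that the authors computed, since within a gene they are whole multiples of a gene-dependent step and their sums differ between libraries. Per the submitters' processing notes, fastp, HISAT2, HTSeq, DESeq2, R 3.2.0 and mm10 were used, without their roles. No source used here says whether strand was kept. Whole reads were recovered for 16889 genes within a tolerance of 0.001 reads.

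Log2(FPKM + 1) was tested with limma 3.58.1 (trend, robust) in R 4.3.3, group as the only term, for 11920 genes with a mean of at least 1 FPKM. P-values were Benjamini-Hochberg adjusted and called under 0.05. The code was tested on simulated data. Gene coordinates and promoters are RefSeq's (GRCm38.p6), matched by NCBI gene number for 8 of 8 members. Intervals and read limits cover counting error only. Named genes were the members, called list genes, abundant uncalled ones, paralogs and the 3 most similar profiles. The members, lists and motifs were chosen with earlier results of these data known. Alternatives changed pseudocount, filter, scaling, variance model, weights and libraries. A few genes of the lists are counted but not reported here by name.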

Additional observations from a re-analysis of the deposited data

Results flagged for a closer look

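In the 4 sHA-X libraries, 110 sets of values (the members, the tested list genes and the marker sums) were searched for a library far from the other 3, and 8 were found. Chance gives about 1 in 20 at this limit. None of the 8 members was among them. Pygm was 6.89 FPKM in sHA-X replicate 2 and the skeletal muscle marker sum 202.7 FPKM in the same library, each the highest of the 4. Ldha (77.6 FPKM) and Gbe1, the glycogen branching enzyme (7.74 FPKM), were highest in sHA-X replicate 4, and Klf2 (77.7 FPKM) and Crtc2, a cyclic AMP coactivator (15.8 FPKM), were lowest there. Creb1 was lowest in sHA-X replicate 3 (21.4 FPKM). The pancreatic islet marker sum was highest in sHA-X replicate 1 (0.657 FPKM), where Gcg, the glucagon gene, gave 0.431 FPKM of it.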

How the results depend on the processing

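Pygl was called higher and Foxo1 lower under every alternative except the replicate block. The labels number replicates 1 to 3 in both groups, but same-numbered libraries did not deviate together (correlations of 0.15, -0.214 and -0.286), so the numbers are not taken as pairs. With the replicate block, which leaves out sHA-X replicate 4, 304 genes were higher and 86 lower, with 0 members higher and 0 lower (limma, adjusted p = 0.075 for Pygl and 0.13 for Foxo1). Leaving out 1 library gave between 488 and 1263 genes higher, between 228 and 637 lower, 1 to 2 members higher and 1 lower in each fit. Pck1 was the added member, without sHA-X replicate 1, its lowest library, and that fit is given as a description and not as a call. Leaving out both second libraries gave 492 higher and 330 lower. With library weights, estimated gene by gene because the default estimate did not converge, 1959 genes were higher and 1118 lower. With 1 library left out, the log2 change of Pcx ran from -0.0086 (without PBS replicate 3) to 0.35 (without PBS replicate 2), and it was 0.37 without both second libraries. Of the glucose list genes other than the members, 28 were higher and 9 lower with library weights, and 3 and 0 with the replicate block, against 17 and 4. The replicate block and the fits that leave out libraries hold fewer libraries, and the fit with library weights holds all 7. The cause of these shifts was not tested. G6pc and Fbp1 were under some of the alternative filters and then had no value, and were not called in any other fit (adjusted p from 0.19 to 0.53). Reads limit Slc2a2 and Gckr, which had at most 83 and 51 reads in a library.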
